A study of Mus musculus with 59 samples.

Results

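A set of 10 genes of the immediate-early response was followed across 59 exon arrays: Fos, Fosb, Jun, Junb, Egr1, Egr2, Arc, Npas4, Ier2 and Dusp1. They were chosen by symbol, as classical immediate-early genes and with earlier results of these data known. All 10 were found among the 19613 genes measured. Each array holds RNA from embryoid bodies with spinal motor neurons, which had been derived from a single mouse embryonic stem cell line carrying an HB9-eGFP motor neuron reporter and then kept for 24 h with mouse serum. Serum of 29 arrays came from male mice hemizygous for a mutant human SOD1 transgene, a model of amyotrophic lateral sclerosis, taken before symptoms. Serum of the other 30 arrays came from their non-carrier littermates. The donors were F1 offspring of C57BL/6 and SJL. The labels give a time of 9 weeks for 53 arrays and 10 weeks for 6. It is read here as the age of the serum donors, since the study states a donor age close to it. The 6 arrays of 10 weeks form 1 of the sets compared below, so donor age and set cannot be told apart. The transgene acts in the serum donors, and the cells that were profiled did not carry it. All arrays received mouse serum and all were harvested at 24 h, so the level without serum and the first hour of the response were not part of the design.

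Immediate-early genes are transcribed within minutes of a stimulus from factors that are already in the cell and need no new protein. Growth factors in serum reach them through the Ras-ERK cascade, which phosphorylates the ternary complex factors bound beside serum response factor at the CArG box, while calcium and cyclic AMP reach them through CREB at the cyclic AMP response element. Their transcripts are short-lived and normally fall back within hours. In neurons several of them, among them Fos, Egr1, Arc and Npas4, are used as markers of recent activity.

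The letters of these elements can be seen in the RefSeq promoter windows (GRCm38.p6) of 4 members, Fos, Fosb, Egr2 and Dusp1. Fos, Fosb and Egr2 form 2 of the pairs that passed the test of joint variation (Fos with Fosb, Fosb with Egr2). Neither of these pairs passed with a measure of background signal, described below, as a covariate. Dusp1 differed in the most pairs of runs. Each sequence holds the 150 bases that end just before an annotated start, read 5' to 3' on the gene's strand, with the letters of a CArG box, TGACGTCA, TGACG or TATAAA in capitals. Both strands were searched for each motif, and every TGACGTCA also counts as TGACG.
Fos, chr12:85473740-85473889, plus strand: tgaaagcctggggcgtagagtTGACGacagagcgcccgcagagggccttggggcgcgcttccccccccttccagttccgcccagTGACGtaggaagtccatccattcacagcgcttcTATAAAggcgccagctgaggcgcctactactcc
Fosb, chr7:19310046-19310195, minus strand: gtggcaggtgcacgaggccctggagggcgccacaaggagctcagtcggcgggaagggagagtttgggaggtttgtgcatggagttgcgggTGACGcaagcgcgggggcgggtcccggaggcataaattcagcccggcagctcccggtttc
Egr2, chr10:67537719-67537868, plus strand: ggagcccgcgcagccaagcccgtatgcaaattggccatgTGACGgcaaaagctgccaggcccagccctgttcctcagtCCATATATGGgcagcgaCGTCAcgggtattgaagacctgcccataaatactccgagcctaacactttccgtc
Dusp1, chr17:26508473-26508622, minus strand: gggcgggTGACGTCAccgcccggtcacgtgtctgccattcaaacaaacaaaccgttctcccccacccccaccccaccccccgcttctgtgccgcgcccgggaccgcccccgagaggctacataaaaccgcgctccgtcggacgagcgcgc
The Egr2 window, one of several that RefSeq gives for that gene, holds a CArG box that begins 72 bases before the start, with TGACG letters on either side of it, the nearer to the start at 55 bases. Fos holds TGACG at 2 places, the nearer at 66 bases before its start, and TATAAA at 33 bases. Fosb holds TGACG at 60 bases, and Dusp1 holds the full TGACGTCA near the far end of the window. In the 250 bases before the start, a CArG box was present in 1.47% of all 32851 promoter windows, TGACGTCA in 1.55%, TGACG in 17.8% and TATAAA in 12.4%. Windows were used for 7 of the 10 members, of which 6 held TGACG and Egr2 alone a CArG box. Letters farther than 250 bases before the start were not searched, nor were the members without a window. A missing match therefore does not show that a gene lacks the element. These matches describe letters, not binding.

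Arrays were compared in 9 runs, sets with a common name or a common range of numbers in their titles. Runs A to F are known by numbers alone, and the others are the motorneuron run (7 arrays), the HB9MNs run (4 arrays) and the 10-week run (6 arrays). The labels name no batch and do not say that the arrays of a run share a culture. Run C, with 11 arrays, is larger than any group that the study's methods describe and may hold more than 1 batch; when its arrays were split into 2 blocks following the sample order, none of the counts of members changed except that of pairs varying together, which went from 3 to 6. Levels are log2 of the deposited array intensity, and levels of different genes cannot be ranked against each other because their probes differ. The embryoid bodies are mixed, so a lower level can come from fewer cells of one type or from less RNA per cell, which cannot be told apart here. Neuronal and motor neuron genes were well detected, with Tubb3 at 12.4 ± 0.12 (SD, n = 29, carrier serum) and 12.4 ± 0.10 (SD, n = 30, non-carrier serum), and Mnx1, the gene of HB9, at 8.86 ± 0.18 (SD, n = 29) and 8.89 ± 0.16 (SD, n = 30). One technical measure is used throughout, the mean log2 level of 1032 olfactory receptor genes on each array, since these genes are silent in most tissues and their signal stands near background. It averaged 4.94 ± 0.057 (SD, n = 7) in the motorneuron run and lay between 4.54 and 4.70 in the means of the other runs. One carrier array of run E stood apart at 5.04, against 4.52 to 4.61 on the other 5 arrays of that run.

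No difference between the sera was detected in any of the 10 immediate-early genes at 24 h. In a limma fit with the run as a block and Benjamini-Hochberg adjustment over all genes, 0 of 10 passed an adjusted p of 0.05, and 0 of 10 had an unadjusted p under 0.05. Over all genes 457 of 19613 passed, a background of 2.33%, where carrier serum gave higher levels for 0.683% of genes and lower levels for 1.65%. At an unadjusted p under 0.05 the share was 20.7%. The median change of the members was -0.02 on the log2 scale, against 0.02 over all genes. The widest 95% confidence interval, that of Ier2, ran from -0.19 to 0.21 and the narrowest, that of Jun, from -0.09 to 0.01. All members but Jun, Egr1 and Dusp1 were dim. Their mean levels, from 6.07 (Ier2) to 7.10 (Arc), lay below the mean array median of every run (7.27 to 7.45). The intervals describe array signal, and how far they bound a change in the RNA of these dim genes was not tested.

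Fos and Fosb encode the Fos subunits of the AP-1 transcription factor. Fos ranged from 5.68 through a median of 6.07 to 6.89 with carrier serum and from 5.67 through 6.06 to 6.94 with non-carrier serum. Fosb ranged from 5.75 through 6.48 to 7.35 and from 5.82 through 6.38 to 7.27. The 2 sera overlapped over nearly the whole range for both genes, and the highest arrays of each serum belonged to the motorneuron run. The fitted change was 0.03 for Fos (95% confidence interval -0.06 to 0.13, limma adjusted p = 0.696) and 0.05 for Fosb (-0.06 to 0.16, limma adjusted p = 0.589). Fos was higher with carrier serum in 5 of 9 runs and Fosb in 6 of 9.

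Jun and Junb encode the partners of the Fos proteins in AP-1. Jun was the least variable member, from 9.52 through 10.02 to 10.23 with carrier serum and from 9.83 through 10.03 to 10.18 with non-carrier serum. Junb ran from 6.07 through 6.58 to 6.97 and from 6.14 through 6.59 to 7.03. Neither gene separated the sera, with a change of -0.04 for Jun (-0.09 to 0.01, limma adjusted p = 0.391) and -0.02 for Junb (-0.13 to 0.09, limma adjusted p = 0.824).

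Egr1 and Egr2 encode zinc finger factors that are classical targets of serum response factor, and Egr2 also takes part in hindbrain patterning and in myelination by Schwann cells. Egr1 ranged from 7.69 through 8.65 to 9.67 with carrier serum and from 7.62 through 8.69 to 10.02 with non-carrier serum, the widest range of the 10. Egr2 ranged from 6.16 through 6.52 to 7.004 and from 6.17 through 6.52 to 6.97. Their fitted changes were -0.07 for Egr1 (-0.18 to 0.05, limma adjusted p = 0.491) and 0.0063 for Egr2 (-0.06 to 0.07, limma adjusted p = 0.926). The Egr1 mean was lower with carrier serum in 7 of 9 runs, and both its lowest arrays and its highest arrays were spread over both sera.

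Arc, a synaptic protein whose messenger RNA travels to dendrites, and Npas4, a transcription factor induced by calcium entry, are the members most closely tied to neuronal activity. Arc ranged from 6.47 through 7.02 to 7.61 with carrier serum and from 6.81 through 7.10 to 7.69 with non-carrier serum, and its mean was lower with carrier serum in 8 of 9 runs. Npas4 ranged from 5.89 through 6.28 to 6.90 and from 5.84 through 6.38 to 6.90, with the lower mean in 5 of 9 runs. The fitted change of Arc was -0.07 (-0.14 to 0.0097, limma adjusted p = 0.304) and that of Npas4 -0.01 (-0.08 to 0.06, limma adjusted p = 0.841).

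Ier2, a small nuclear protein of the early growth response, and Dusp1, a phosphatase that removes the activating phosphates of MAP kinases, complete the set. Ier2 was the noisiest member, from 5.29 through 6.00 to 7.29 with carrier serum and from 5.02 through 6.08 to 6.75 with non-carrier serum. Dusp1 ranged from 9.39 through 9.86 to 10.30 and from 9.47 through 9.96 to 10.34. The change of Ier2 was 0.01 (-0.19 to 0.21, limma adjusted p = 0.956). Dusp1 came nearest to the unadjusted threshold, with a change of -0.05 (-0.11 to 0.00078), an unadjusted limma p of 0.0533 and an adjusted p of 0.248, and was lower with carrier serum in 7 of 9 runs.

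**Figure D1:**
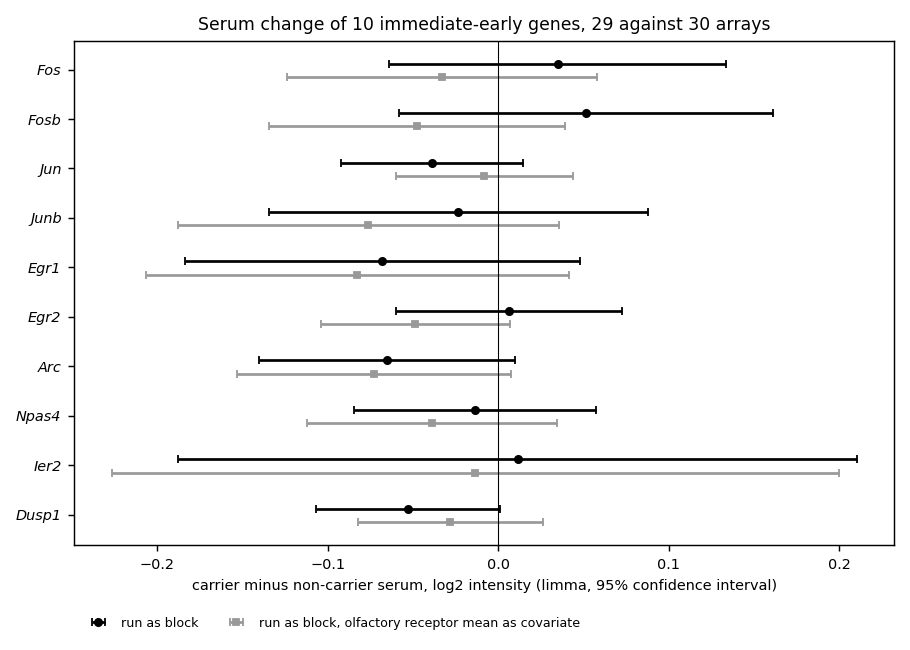
Carrier minus non-carrier log2 intensity (x axis) of the 10 immediate-early genes (y axis) from limma with the run as a block (black) and with the olfactory receptor mean as a further covariate (grey), with 95% confidence intervals, for 29 against 30 arrays. Every interval spans 0 in both fits, and in the grey fit all 10 estimates lie below 0, from -0.0081 for Jun to -0.08 for Egr1.

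The olfactory receptor mean itself was 0.062 higher with carrier serum (0.013 to 0.11). With it as a covariate, none of the 10 members passed, and Fos, Fosb, Egr2 and Ier2 turned from above 0 to -0.03, -0.05, -0.05 and -0.01. The direction of these 4 genes thus had no settled sign. Of the olfactory receptor genes, 7.46% had a mean level at or above that of Fos, 8.14% at or above Ier2, 4.36% at or above Npas4, 3.59% at or above Fosb, 3.004% at or above Egr2, 2.91% at or above Junb and 1.36% at or above Arc. For Egr1 this share was 0.0969%, and for Jun and Dusp1 it was 0%. Since the probes differ, these shares are a rough gauge and not a ranking of the genes.

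Serum effects were also compared within each run by exact two-sided permutation tests. Of 90 tests, 0 had an exact p under 0.05 and the smallest was 0.0571, for Jun in run D and Egr2 in the motorneuron run, while a run of 3 against 3 arrays cannot go below 0.1. Carrier and non-carrier arrays did not overlap in 11 of the 90, and over all genes and runs this share was 17.6%. Of these 11, 5 were in the HB9MNs run of 2 against 2 arrays, where Fosb, Jun, Egr2, Arc and Npas4 were lower with carrier serum and no exact p can go below 0.333. In the limma test of the serum change differing between runs, 0 of 10 members passed, and over all genes 25 passed, a background of 0.127% (7.94% at an unadjusted p under 0.05). No member had the same sign of the difference in all 9 runs, which 1.76% of genes had.

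The members differed far more between runs than between sera. The run accounted for 81.2% of the variance of Dusp1, 73.1% of that of Npas4 and 69.0% of that of Egr1, but for 24.7% of that of Junb and 26.2% of that of Ier2, whereas serum accounted for 2.32% or less in every member. The typical gene was alike, with medians of 62.5% by run and 0.94% by serum over all genes. Those of the members were 62.6% and 0.47%. These shares are not corrected for the number of terms, which is larger for 9 runs than for serum. Run therefore takes some share even where runs do not differ. A limma F test over the 9 runs called 9 of 10 members, the exception being Junb (limma adjusted p = 0.0557). This was no more than the background, as 94.0% of all genes passed. Of the 36 pairs of runs, Dusp1 differed in 26, Fosb and Npas4 in 21 each, Jun, Egr1 and Arc in 15 each, Fos in 14, Egr2 in 11, and Junb and Ier2 in 3 each, against 43.9% of pairs over all genes.

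**Figure D2:**
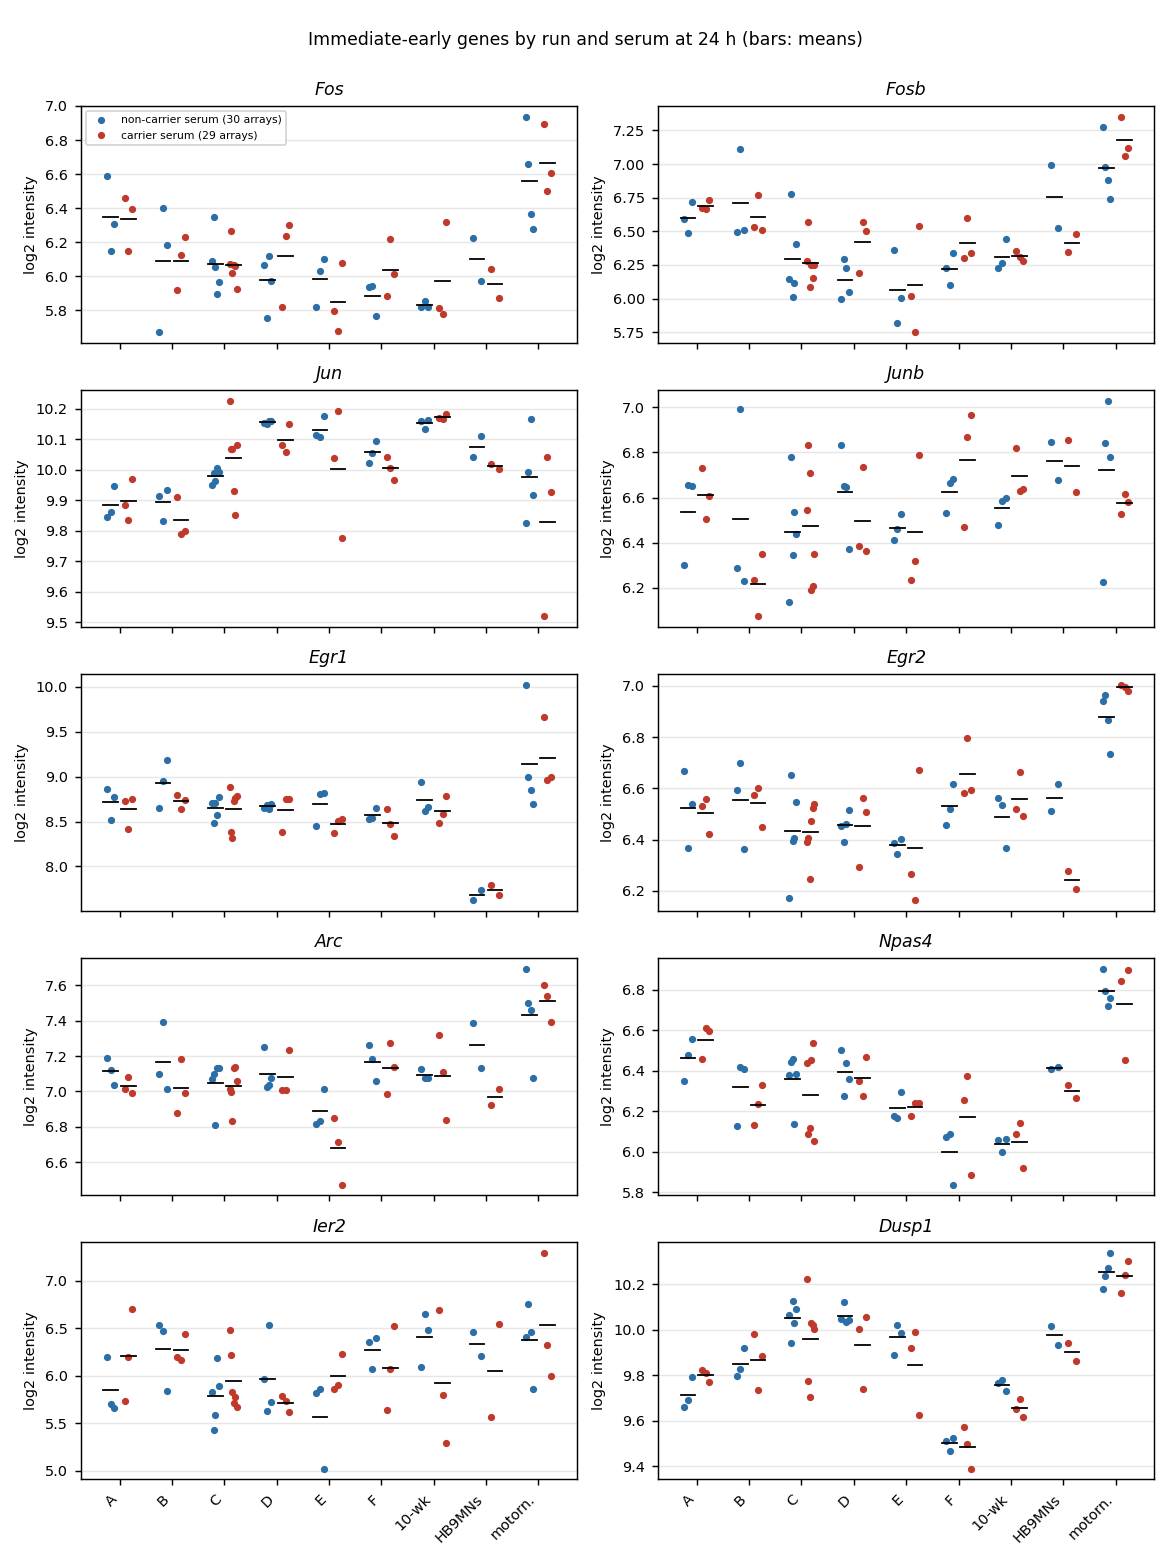
Log2 intensity (y axis) of each immediate-early gene on every array, by run (x axis), with non-carrier serum in blue and carrier serum in red and a bar at the mean of each serum in each run. The 4 HB9MNs arrays lie at 7.62 to 7.79 for Egr1, below every other array, and the motorneuron run has the highest mean for 8 of the 10 genes.

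Egr1 in the HB9MNs run was the most distinct value of the set. Its 4 arrays read 7.62 and 7.74 with non-carrier serum and 7.79 and 7.69 with carrier serum, a mean of 7.71 ± 0.073 (SD, n = 4). The lowest of the other 55 arrays was at 8.32, and the run with the next lowest mean, run F, was at 8.53 ± 0.11 (SD, n = 6). Both sera were low alike, with no overlap with any other array. The HB9MNs mean was 1.01 below the mean of the other runs (95% confidence interval -1.24 to -0.78, limma adjusted p = 5.39e-10), a level of 0.497 times, and each of its 8 comparisons with another run passed, with limma adjusted p-values of 4.03e-06 or less. This run was singled out after its values were seen. Only 0.535% of genes had all 4 HB9MNs arrays below every other array, while 12.5% of all genes were called lower and 14.6% higher in this run. None of the other 9 members passed in this run as deposited, where they lay from -0.14 (Egr2) to 0.20 (Junb) of the mean of the other runs, but Egr2 did after quantile normalization (-0.14, limma adjusted p = 0.0187). The Egr1 difference was between -0.99 and -1.01 under all scalings and with the olfactory receptor covariate.

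Among 35 further immediate-early genes, 6 were lower and 5 higher in the HB9MNs run, and 4 lower and 7 higher with each array centred on its median. Nr4a3, an orphan nuclear receptor of this class, was lower by 0.63 (limma adjusted p = 6.86e-12), and Gadd45b, a stress-induced regulator, had a difference of -1.21 (limma adjusted p = 2.85e-15). Ier3 was higher by 0.97 and Bhlhe40, a basic helix-loop-helix repressor, by 0.84, so the class did not move one way. Of 12 feedback genes of the ERK pathway 5 were lower and 1 higher, among them Etv5 (-0.49), Spred2 (-0.47) and Spry4 (-0.47). Of 5 neural progenitor genes, Olig2 (-0.41), Sox2 (-0.45) and Nes (-0.43) were lower in the same run and Pax6 (0.35) was higher, and of 6 motor neuron genes Isl1 (0.29) and Chat (0.31) were higher and Slc5a7 (-0.36) was lower. Of 4 neuronal genes 3 were higher, Elavl3 (0.19), Snap25 (0.15) and Elavl4 (0.13), and 0 lower, against 14.6% and 12.5% of all genes. After quantile normalization 1 of these 4 was called higher and 0 lower. The part of these marker differences in the Egr1 level was not tested. These genes were named after their values in this run were seen.

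In the motorneuron run 8 of the 10 members had their highest mean, all but Jun and Junb. Over all genes 48.9% had their highest mean there. Against the mean of the other runs, the difference was 0.67 for Fosb, 0.63 for Egr1, 0.57 for Fos, 0.49 for Npas4, 0.45 for Egr2, 0.41 for Arc, 0.41 for Dusp1 and 0.40 for Ier2, each with a limma adjusted p of 0.0162 or less. Jun was lower there by 0.11 (limma adjusted p = 0.0104), and Junb differed by 0.09 (limma adjusted p = 0.309). Over all genes 56.2% were called higher and 24.6% lower in this run, and the median gene was 0.18 higher. With each array centred on its own median, 7 members were called higher and 1 lower (7897 and 7070 of all genes), and after quantile normalization 7 higher and 2 lower (6718 and 6272), with a shift of the median gene of 0.04 and 0.02. Ier2 was the member no longer called in either. Junb turned to -0.05 and -0.24. Quantile normalization left Egr1 at 0.65 and Dusp1 at 0.41 but brought Fosb to 0.40, Arc to 0.27, Fos to 0.22, Npas4 to 0.17, Egr2 to 0.15 and Ier2 to 0.06.

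The motorneuron run was also the run with the highest olfactory receptor mean, 4.94. With this mean as a covariate, 5 members were called higher there and 0 lower (30.9% and 20.4% of all genes), namely Egr1 (0.55), Dusp1 (0.54), Arc (0.37), Npas4 (0.36) and Egr2 (0.16). Fos (0.21, limma adjusted p = 0.0865), Fosb (0.15, limma adjusted p = 0.205) and Ier2 (0.27, limma adjusted p = 0.372) no longer passed. The F test over all 9 runs called 8 members with the covariate, against 86.9% of all genes. The remaining values of this paragraph are from fits without the covariate. As deposited, 23 of 35 further immediate-early genes were called higher and 7 lower, against 56.2% and 24.6% of all genes. With centred arrays 22 were called higher and 8 lower, against 7897 and 7070 of all 19613 genes. Jund, Nr4a1, Zfp36, Csrnp1 and Trib1 lay above every array of the other runs, as did Srf, the gene of serum response factor itself, which was 0.80 higher (limma adjusted p = 1.74e-23). Srf is 1 of 22 upstream kinases and transcription factors, of which 14 were called higher and 5 lower. The counts were 8 and 8 with centred arrays and 14 and 5 after quantile normalization. In that list Braf (0.42) also lay above every other array, and Mapk14 (-0.42) lay below every other array. All arrays of this run exceeded every other array for 3.66% of genes and lay below every other array for 3.05%, and no member was among either. Of the cell markers, 3 of 5 progenitor genes were called higher in this run and 2 lower. For 6 motor neuron genes the counts were 2 and 2, and for 4 neuronal genes 1 and 2. The part of these marker differences in the levels of the members was not tested.

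Egr1 was uneven within the motorneuron run. Its arrays read 10.02, 9.00, 8.85 and 8.69 with non-carrier serum and 9.67, 8.97 and 9.00 with carrier serum. The high array of each serum carries the number 1 in its title, and the other 5 arrays lie within the range of the remaining runs. Dusp1 showed no such split, with all 7 arrays between 10.16 and 10.34. Its lowest run was F at 9.49 ± 0.062 (SD, n = 6), which was lower than each of the 8 other runs (limma adjusted p-values of 0.0027 or less).

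To see which members varied together on single arrays, Pearson's r was computed between all 45 pairs after the means of run and serum were removed, with 100000 permutations within runs. After adjustment over the 45, 3 pairs passed, all positive. Fosb and Egr2 gave r = 0.599 (rho = 0.546, permutation p = 3e-05 and 6e-05, adjusted p = 0.00135 and 0.0027). Fos and Fosb gave r = 0.543 (rho = 0.408, permutation p = 7e-05 and 0.00343, adjusted p = 0.001575 and 0.0386). The third pair joined Fos to Egr1 with r = 0.502 (rho = 0.428, permutation p = 0.00041 and 0.002, adjusted p = 0.00615 and 0.03). Without the 2 arrays farthest from the median of the first gene named, r was 0.541, 0.584 and 0.487. For Fos with Egr1 this kept both motorneuron arrays numbered 1, non-carrier and carrier. Their residuals were 0.35 and 0.27 for Fos and 0.82 and 0.53 for Egr1, so the check does not cover them. With Spearman's rho 4 pairs passed, the additional one being Egr2 and Arc (rho = 0.437, permutation adjusted p = 0.0277).

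**Figure D3:**
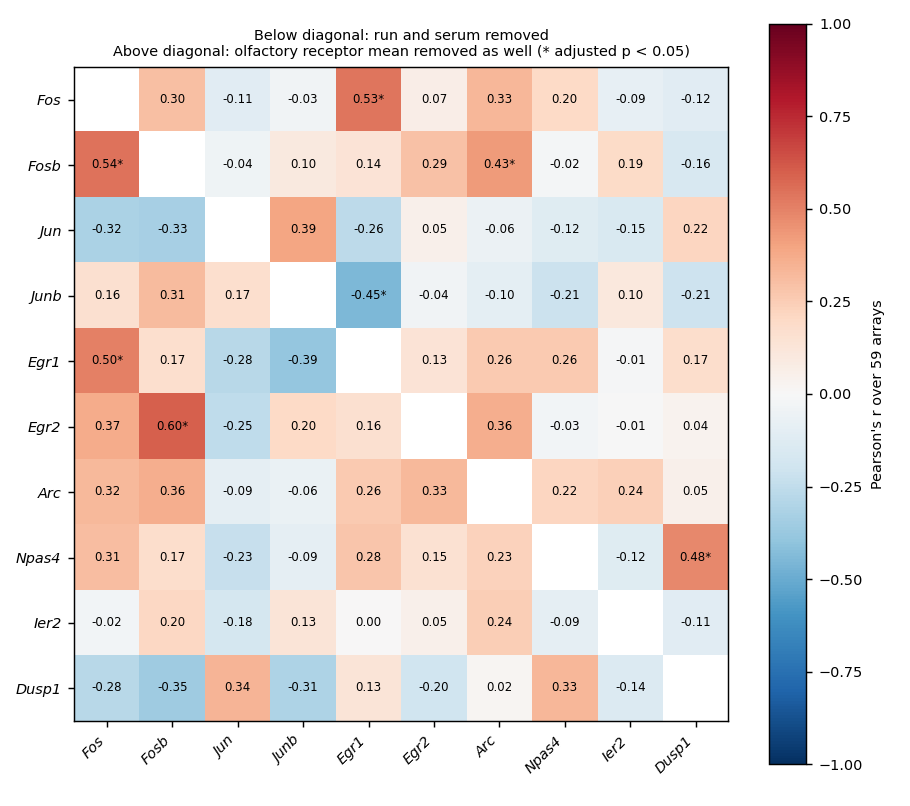
Pearson's r between the residual log2 intensities of the 10 genes over 59 arrays, below the diagonal after the means of run and serum were removed and above it after the olfactory receptor mean was removed as well, with stars at a permutation adjusted p under 0.05. Fos with Egr1 is the one pair starred on both sides, at 0.50 and 0.53, while Fosb with Egr2 falls from 0.60 to 0.29 and Fos with Fosb from 0.54 to 0.30. Both Fos with Egr1 values include the motorneuron arrays numbered 1, non-carrier and carrier, whose Egr1 residuals after run and serum were 0.82 and 0.53.

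Several members varied with the olfactory receptor mean. Over the same residuals, r with that mean was 0.683 for Fosb, 0.637 for Egr2 and 0.519 for Fos, with permutation adjusted p-values of 5e-05, 5e-05 and 1e-04 over the 10 members and rho of 0.600, 0.535 and 0.497 (permutation adjusted p = 1e-04, 0.000533 and 0.000533). The smallest p that these permutations can give is 1e-05. Leaving out the 2 arrays farthest from the median of the mean left r at 0.593, 0.526 and 0.528. Egr1 gave r = 0.0948 (rho = 0.111, permutation adjusted p = 0.536 and 0.457), Arc 0.0768 (permutation adjusted p = 0.605) and Ier2 0.0940 (permutation adjusted p = 0.536). By Pearson's r but not by rho, Jun (-0.448, permutation adjusted p = 0.0106), Dusp1 (-0.361, permutation adjusted p = 0.0463), Junb (0.358, permutation adjusted p = 0.0215) and Npas4 (0.272, permutation adjusted p = 0.0402) passed too, with r of -0.3002, -0.158, 0.218 and 0.285 without those 2 arrays. With the olfactory receptor mean as a covariate 4 pairs passed, of which only Fos and Egr1 (r = 0.532, permutation adjusted p = 0.00945) was among the first 3. The others were Npas4 and Dusp1 (r = 0.482), Fosb and Arc (r = 0.427), and Junb and Egr1, which ran against each other (r = -0.452). The value for Fos and Egr1 again includes the motorneuron arrays numbered 1.

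**Figure D4:**
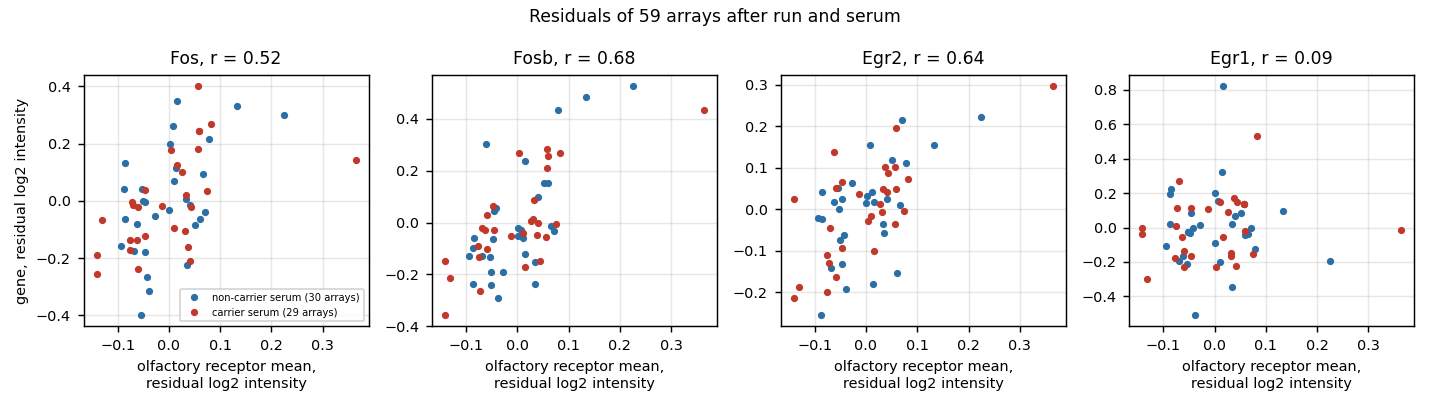
Residual log2 intensity of Fos, Fosb, Egr2 and Egr1 (y axes) against that of the olfactory receptor mean (x axis) on 59 arrays after the means of run and serum were removed, with non-carrier serum in blue and carrier serum in red. Fosb and Egr2 rise along the x axis (r = 0.683 and 0.637) and Egr1 does not (r = 0.0948); the point at the far right is the carrier array of run E with an olfactory receptor mean of 5.04.

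The genes most like each member over these residuals are given as a description, with no test. The closest to Fosb were Tnxb (r = 0.841), Efcab6 (0.831) and Gm5134 (0.828) over 59 arrays. The olfactory receptor mean, which Fosb itself followed (r = 0.683), was not removed here, and its part in these values was not tested. Dusp1 was followed most closely by BC017647 (0.778), Mapk1ip1l (0.756) and Cyb5r3 (0.733). For Egr1 the first was Nr4a3 (0.772), itself an immediate-early gene and low with Egr1 in the HB9MNs run, whose mean had been removed here, followed by Rfx4 (0.752) and Aff1 (0.720). Nr4a3 was the only one of the 30 genes so found for the 10 members that was in the list of further immediate-early genes.

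The wider set of serum-responsive genes was examined in 5 lists. In the list of 35 further immediate-early genes, 4 were lower in carrier serum and 0 were higher, against 1.65% and 0.683% of all genes. The median change was -0.03. Atf3, a stress-induced partner of Jun, averaged 7.14 ± 0.45 (SD, n = 29, carrier serum) against 7.57 ± 0.70 (SD, n = 30, non-carrier serum), a fitted change of -0.39 (limma adjusted p = 0.0201). Ppp1r15a, which directs the phosphatase of the translation factor eIF2 alpha under stress, changed by -0.18 (limma adjusted p = 0.0391), Klf10, a target of TGF-beta, by -0.16 (limma adjusted p = 0.0296) and Nfil3, a basic leucine zipper repressor, by -0.15 (limma adjusted p = 0.0491). Each of these 4 was below 0 in most runs but not in all. Atf3 was at 0.32 in run C, Ppp1r15a at 0.05 in run A, Klf10 at 0.14 in the HB9MNs run and Nfil3 at 0.25 in the motorneuron run. None of the 4 passed with the olfactory receptor mean as a covariate. Bhlhe40, second in size in this list at -0.19, did not pass (limma adjusted p = 0.104), and the largest values above 0 were Egr4 (0.10) and Klf4 (0.09), which did not pass either. The other 31 genes of the list, the close paralogs Fosl1, Fosl2, Jund, Egr3 and Egr4 among them, did not pass.

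None of 22 kinases and transcription factors upstream of these genes passed, and the largest values were those of Crtc2 and Map2k1 (-0.07 and -0.06) and of Rps6ka3 and Rps6ka4 (0.04 each). Of 12 feedback genes of the ERK pathway, whose levels follow its activity, 2 were lower with carrier serum. Dusp4, a nuclear MAP kinase phosphatase, changed by -0.12 (limma adjusted p = 0.0106), lower in 8 of 9 runs, and Spred1, an inhibitor of Raf activation, by -0.10 (limma adjusted p = 0.0169), lower in 9 of 9 runs. Of the 12, 11 had a value below 0, Spry4 at -0.11 among those that did not pass, and Dusp2 was the exception at 0.07. The median of the 12 was -0.04, against 0.02 over all genes, of which 1.65% were called lower. With the olfactory receptor mean as a covariate neither Dusp4 nor Spred1 passed. The activity of ERK was not measured.

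Among 13 actin-type targets of serum response factor, 1 was lower, Myl9, a myosin light chain, at -0.13 (limma adjusted p = 0.0427, but 0.0509 with the replicate block). Acta2 at -0.20 and Actg2 at 0.07 and Acta1 at 0.04 did not pass. Of 8 later activity genes, 1 was higher, Pcsk1, a prohormone convertase, at 0.13 (limma adjusted p = 0.025), while Vgf at 0.05, Scg2 at 0.02 and Nrn1 at -0.04 did not pass. In all 8 of the 90 genes in these lists passed, against the background of 2.33% over all genes. As the lists were chosen with earlier results of these data known, this is not an independent comparison. The count was not stable, as it was 0 with the olfactory receptor mean as a covariate, 0 without the 10-week run, 1 without run D or without run F, 2 without run B, 4 without run E and 18 without run C. Of the cell markers examined, 1 of 6 motor neuron genes, Slc5a7, the choline transporter of motor neurons (0.15, limma adjusted p = 0.041), and 1 of 4 neuronal genes, Snap25 (0.07, limma adjusted p = 0.0166), were higher with carrier serum, with list medians of 0.02 and 0.0017, and 0 of 5 progenitor, 4 pluripotency, 5 mesenchyme, 4 endothelium, 3 blood, 5 glia and 5 endoderm markers passed. The summed intensity of the motor neuron markers ranged from 3432 to 4797 with carrier serum and from 3390 to 4649 with non-carrier serum, and its part in the 8 values was not tested.

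**Figure D5:**
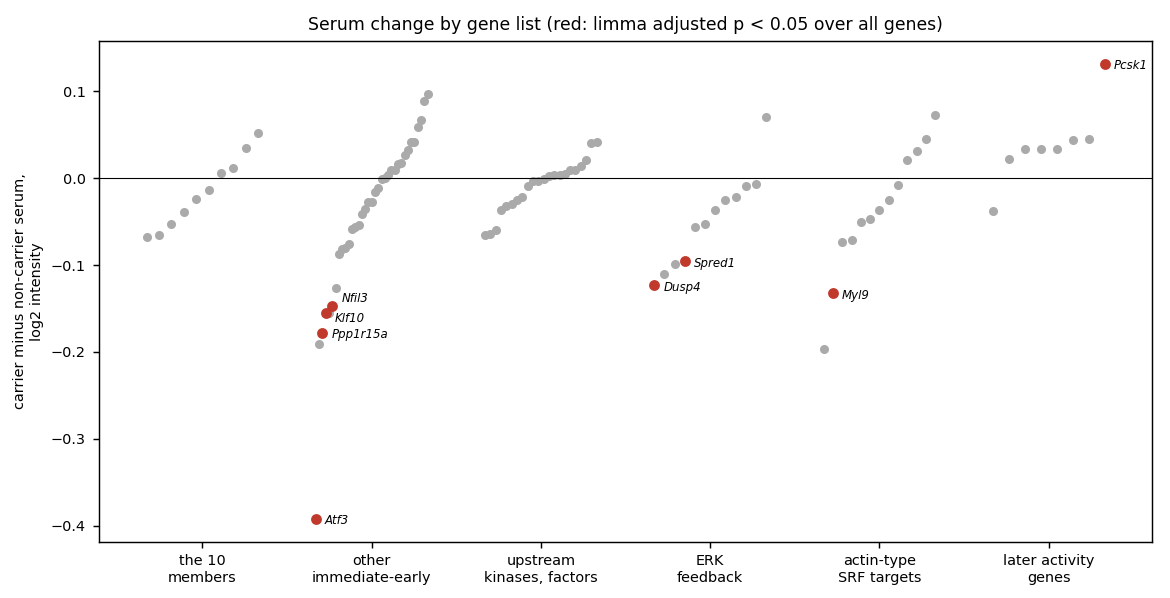
Carrier minus non-carrier log2 intensity (y axis) of every gene of the 10 members and of 5 lists of serum-responsive genes (x axis, ordered by value within a list), in red where the limma adjusted p over all genes was under 0.05. The 10 members lie between -0.07 and 0.05 with none in red, whereas Atf3 reaches -0.39.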

How the data were processed

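Total RNA was hybridized to Affymetrix Mouse Exon ST arrays. The deposited values are linear intensities that the authors obtained by RMA (aroma.affymetrix) and averaged over the exons of each gene, using release 33 of the array annotation. Outlying arrays by Grubbs' test had been dropped before. RMA puts arrays on a common scale, which can hide a shift shared by all genes. The genome build is not given in the sources used here. Array medians lay between 151 and 183, and the number of arrays limits the precision.

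Log2 intensities (pseudocount 0, no filter) were analysed in R 4.3.3 by the moderated linear models of limma 3.58.1 (lmFit, eBayes), with serum and run as terms, two-sided tests and Benjamini-Hochberg adjustment over 19613 genes at a threshold of 0.05. Permutations used numpy 2.4.6 and scipy 1.17.1. Fits were tested on simulated data. Separate cultures are not stated for each array, so p-values measure the spread between arrays, which may be partly technical. Arrays sharing a number within a run did not deviate together in every pair.

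All 10 members are named, and from the other lists every gene that passed and the 2 largest values in each direction, and for members with the highest r the 3 most similar genes. Members and lists were chosen with earlier results of these data known. The olfactory receptor covariate, the comparison of single runs with the others, and the fits without the motorneuron and HB9MNs runs or without the carrier array of run E were added after the data were seen. Alternatives covered the block, the scaling, dim genes, a pseudocount of 16, the variance model, array weights and each run left out. Slc18a3, Map2, Syt1, Nkx6-1, Hbb-b1 and Hba-a1 were not analysed here.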

Additional observations from a re-analysis of the deposited data

Results flagged for a closer look

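Over the 10 genes and the 4 sets of 4 to 6 arrays with 1 serum in 1 run, 40 in all, 3 had an array far from the rest, and chance gives about 1 in 20. The lowest of 5 non-carrier arrays of run C was at 6.81 for Arc, with the nearest at 7.07, and at 6.14 for Npas4, with the nearest at 6.38. The highest of 4 non-carrier arrays of run D was at 10.12 for Dusp1, with the nearest at 10.05. The serum change differed between runs for 2 of the further immediate-early genes. For Atf3 (limma interaction adjusted p = 0.0358) it ranged from -1.45 in run B and -0.87 in run E to 0.32 in run C. For Nfil3 (limma interaction adjusted p = 0.0287) it ranged from -0.48 in run E to 0.25 in the motorneuron run.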

How the results depend on the processing

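None of the 10 members passed for serum under any of the 22 alternatives, and the interaction with run called 0 members under all 14. With dim genes left out, Jun, Egr1 and Dusp1 were the only members tested. Jun, Egr1 and Dusp1 kept their direction in all 22. The sign of Egr2 turned to -0.0080 without a run block, -0.00038 with the replicate block in 3 runs, -0.0011 with centred arrays, -0.026 after quantile normalization, -0.0052 with array weights, -0.0074, -0.0012 and -0.0084 without run F, the 10-week or the motorneuron run, -0.049 with the olfactory receptor covariate and -0.0062 without the carrier array of run E. Ier2 turned to -0.00081 without a run block, -0.0086 with the replicate block, -0.019 with 4 motor neuron genes as covariates, -0.027 after quantile normalization, -0.14 with array weights, -0.028, -0.023, -0.036 and -0.0093 without run A, C, E or motorneuron, -0.014 with the olfactory receptor covariate and -0.0072 without the carrier array of run E. Fos turned to -0.013 after quantile normalization and -0.033 with the olfactory receptor covariate, and Fosb to -0.048 with that covariate. Npas4 turned to 0.028 with the motor neuron genes, 0.0047 with array weights and 0.0014 without run C, Arc to 0.00083 with the motor neuron genes, and Junb to 0.0063 without run B. The replicate block called 0 members and moved 1 other call, that of Myl9 (limma adjusted p = 0.0509); r of arrays sharing a number was between -0.14 and 0.33.

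Of the 90 genes in the other lists, 8 passed, but 0 without a run block, 26 with the motor neuron genes as covariates, 5 after quantile normalization, 20 with array weights, 2, 18, 1, 4, 1 and 0 without run B, C, D, E, F or the 10-week run, and 0 with the olfactory receptor covariate. The run test called 3 members with dim genes left out, Jun, Egr1 and Dusp1, which were the 3 members tested. The 3 pairs passed also under the following settings, with further pairs: 10 with centred arrays, 6 with run C parted, 5, 6, 6 and 6 without run B, C, E or the 10-week run, and 5 without the carrier array of run E. The cause of these changes was not tested. How many arrays there are limits the precision.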
